A study of Papio anubis with 25 samples.

Results

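The sublingual gland was compared with the pancreas in 5 olive baboons (Papio anubis), using all 5 sublingual and all 5 pancreas RNA sequencing libraries, 10 of the 25 libraries of the series. Baboon 5 was the only male, so sex and animal cannot be told apart. No treatment or genetic change is given for any animal, and the sublingual tissue was labelled as taken from the left side. Each library came from RNA of thin sections of 1 frozen biopsy, and the 2 libraries with the same animal number were treated as a pair. The comparison asks which genes separate a salivary gland from the pancreas within the same animals. Within that comparison, genes raised in all 5 sublingual libraries were separated from those raised in only 1 or 2 of them.

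The sublingual gland lies under the tongue and is mainly a mucous gland. Its acinar cells pack heavily glycosylated mucins, its ducts modify the fluid, and contractile myoepithelial cells wrap the acini. It develops from oral epithelium. The pancreas is an outgrowth of the foregut, and its acinar cells make digestive enzymes under a set of transcription factors led by PTF1A with RBPJL. Both glands are exocrine, so the comparison sets one protein-secreting epithelium against another.

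The 5 sublingual libraries did not hold the same tissue content, as the plot of summed list levels shows. A list of 35 stratified oral mucosa genes, which line the mouth and form its squamous layers, summed to 229861 TPM in the sublingual library of baboon 1 and 157951 TPM in that of baboon 4. TPM is the length-corrected share of a transcript in its library. In the other 3 animals the same sublingual sum was 1166, 2143 and 1227 TPM. A list of 31 skeletal muscle genes summed to 195641 TPM in the sublingual library of baboon 2 and to 213 to 1396 TPM in the other 4. Genes of mucous cells summed to 237490 TPM in baboon 5 and 31105 TPM in baboon 3, against 9862, 1071 and 3979 TPM in baboons 1, 2 and 4. ZG16B alone, a secreted lectin-like protein, was 217252 and 26569.8 TPM of the sums in baboons 5 and 3. In pancreas the mucous list ranged from 1185 to 2978 TPM, so the library of baboon 2 did not exceed it. In parotid the same list ranged from 1558 to 20216 TPM, and in submandibular gland from 1747 to 51537 TPM. The sum was therefore not particular to the sublingual gland, and in baboons 5 and 3 it was mostly ZG16B.

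The labelled gland was checked against AQP5, the water channel of salivary acinar cells. Sublingual AQP5 stood at 40.5, 2.61, 68.9, 3.78 and 226 TPM (baboons 1 to 5), pancreas AQP5 at 2.53 to 4.52 TPM. The sublingual libraries of baboons 1, 3 and 5 lay above the pancreas and those of baboons 2 and 4 lay within its range. MUC5B, the gel-forming mucin of mucous acini, reached 86.7 TPM in baboon 1 and at most 0.947 TPM in the other 4 sublingual libraries. The pancreas label was matched by its markers: CPA1, which encodes a carboxypeptidase, was at 26663 to 55949 TPM in all 5 pancreas libraries. In bulk tissue, fewer cells of a type and less RNA per cell cannot be told apart.

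**Figure D1:**
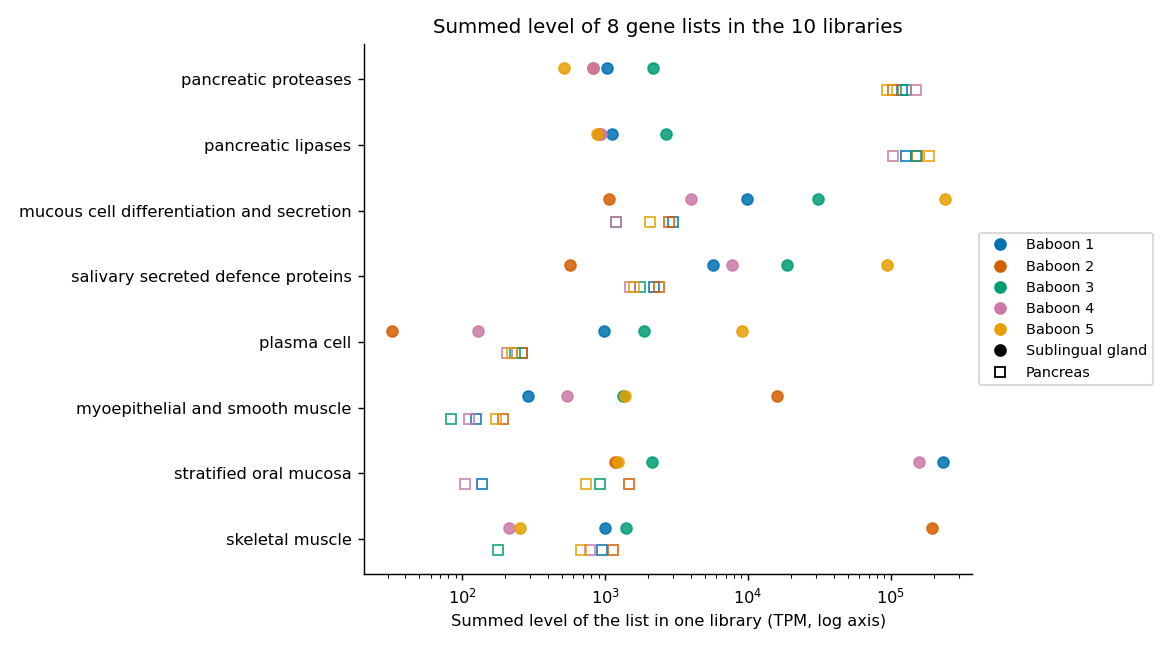
Summed TPM (horizontal log axis) of 8 gene lists in each sublingual library (filled circles) and pancreas library (open squares), coloured by animal. Pancreatic enzyme lists separate the tissues in all 5 animals, while the mucosa list is high in baboons 1 and 4 of the sublingual gland and the muscle list in baboon 2.

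Across all genes, 13620 had a mean of at least 1 TPM in either tissue and were tested with limma on log2(TPM + 1), with the animal as a block. Calls needed a p adjusted by Benjamini-Hochberg of under 0.05 and a log2 difference of at least 1. In sublingual gland 1001 genes were called higher (7.35%) and 313 lower (2.3%), 9.65% in all. An unadjusted p under 0.05 was reached by 5256 genes (38.6%), and the list counts at that threshold given below stand beside this share. The median difference over all tested genes was 0.69, and after TMM scaling, which sets most genes to a common level across libraries, it was 0.12. With that scaling the calls were 85 higher (0.646% of 13158) and 526 lower (4%), 4.64% in all, so the balance of the calls turned around with the scaling. Of the genes called with values as deposited, 85 of the higher and 309 of the lower were also called after TMM scaling.

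The lower genes depended less on single animals than the higher ones. Leaving out baboon 1, 2, 3, 4 or 5 gave 19, 2214, 56, 75 and 127 higher genes and 138, 321, 162, 154 and 217 lower genes. Without baboons 1 and 4 together, whose sublingual libraries carried the mucosa genes, 8 were higher and 92 lower. Without the pairing by animal, 2209 were higher and 414 lower. Over the 14 fits run, 88 genes were called lower in every fit and 1 gene, CRYAB, was called higher in every fit.

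**Figure D2:**
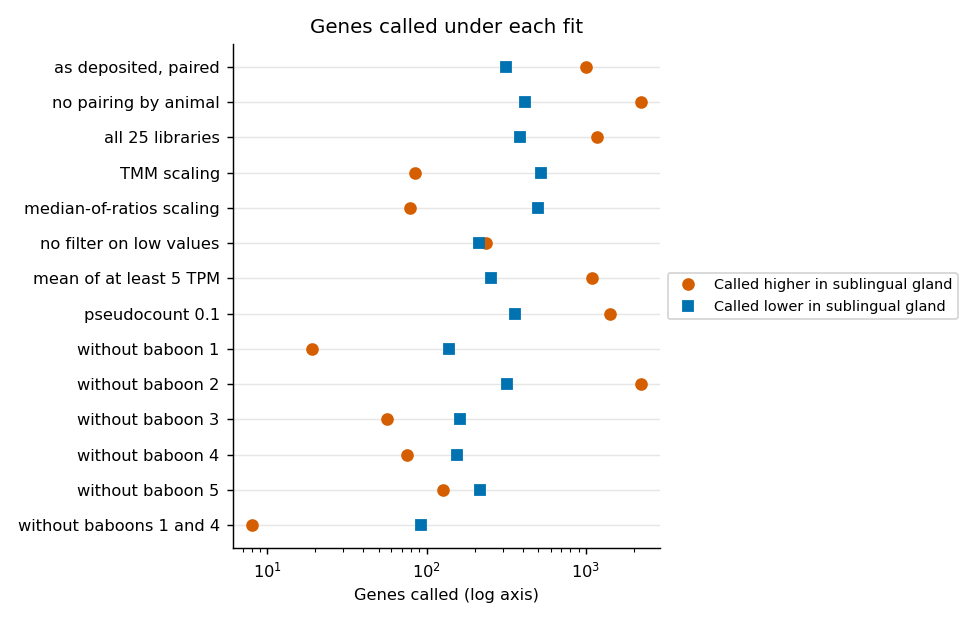
Number of genes called higher (circles) and lower (squares) in sublingual gland than in pancreas under each of 14 fits, on a horizontal log axis. The lower calls range from 92 to 526 and the higher calls from 8 to 2214.

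Pancreatic digestive enzymes and granule proteins had the lowest differences among called genes of the naming rule, which ranks no gene known only by a locus number, and all measured proteases and lipases fell. In baboons 1 to 5, CPA1 measured 274, 249, 592, 276 and 137 TPM in sublingual gland and 40562, 31451, 26663, 55949 and 27565 TPM in pancreas. SYCN, which encodes the zymogen granule protein syncollin, was at 2.89 to 17.7 TPM in sublingual gland and 662 to 1769 TPM in pancreas. The tissues did not overlap for either gene, and both had a log2 difference of -6.99 (SE 0.46, limma adjusted p = 0.000106 for CPA1, and SE 0.50, adjusted p = 0.000146 for SYCN). All 7 measured proteases and all 4 measured lipases of the lists were called lower, against 2.3% of all genes. Their median differences were -6.85 and -6.88. CTRL and CELA3B, a chymotrypsin-like protease and an elastase, differed by -6.95 and -6.91, and the lipase CEL and the lipase cofactor CLPS by -6.91 and -6.89.

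Other granule proteins followed the enzymes. Of 12 measured genes in a list of acinar granule and defence proteins, 10 were called lower and 0 higher, against 2.3% and 7.35% of all genes. All 12 had an unadjusted p under 0.05. With 1 animal left out 8 to 10 were called lower, and 8 without baboons 1 and 4 together. ZG16, a granule membrane lectin, differed by -6.79, SPINK1, the trypsin inhibitor, by -6.68, and GP2, the major granule membrane glycoprotein, by -6.56. KLK1 and CFTR, also called, are not genes of acinar granules alone: KLK1 is a kallikrein that salivary ducts make, and CFTR is a chloride channel of ducts. KLK1 was at 3040 TPM in the sublingual library of baboon 3, above its 1614 to 2136 TPM in pancreas, and at 35.6 to 322 TPM in the other 4. DMBT1, a mucosal defence glycoprotein, went the other way, with 114, 0.706, 36.8, 3.57 and 547 TPM in sublingual gland and 0.526 to 3.67 TPM in pancreas. It was not called (3.48, SE 0.98, limma adjusted p = 0.0575). The 15 lowest genes of the naming rule, all from these lists except RBPJL, were called lower in each of the 14 fits.

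The small amounts of CPA1 and CLPS in the sublingual libraries were close to those in liver of the same series. Mean CPA1 was 306 ± 170 TPM in sublingual gland against 299 ± 80.1 TPM in liver (SD, n = 5 each). CLPS was at 774 ± 481 and 787 ± 208 TPM in the same tissues. Sublingual CPA1 was 0.839% of its pancreas mean and liver CPA1 0.821%. The measured proteases summed to 519 to 2171 TPM in sublingual gland and 798 to 1393 TPM in liver. In parotid they summed to 150 to 1188 TPM and in submandibular gland to 369 to 2482 TPM. A list of acinar transcription factors summed to 18.0 to 204 TPM in sublingual gland and 76.1 to 212 TPM in liver. It includes BHLHA15, a factor of many exocrine glands, so its sum is not one of pancreatic genes alone and is not a like case. The source of these low values was not tested, and the log2 differences above depend on them.

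**Figure D3:**
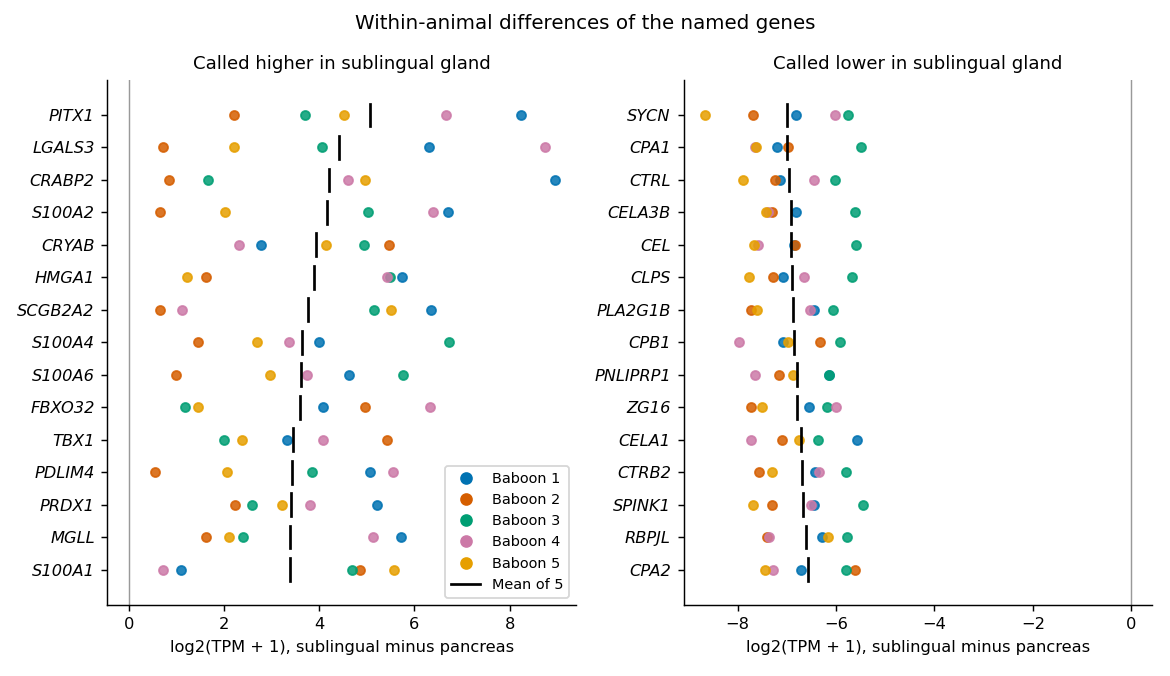
Within-animal difference in log2(TPM + 1), sublingual minus pancreas, for the 15 highest and 15 lowest called genes of the naming rule; points are animals and bars the mean of 5. The lowest genes lie between -8.67 and -5.45 in every animal, while the highest genes spread from 0.56 to 8.95.

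The transcription factors of pancreatic acinar cells fell with the enzymes. Of 6 measured, 5 were called lower, against 2.3% of all genes, and after TMM scaling all 6 were, against 4%. With 1 animal left out 3 to 5 were called lower, against 1.04% to 2.36% of all genes. Without baboons 1 and 4 together 2 were, against 0.701%. PTF1A, the basic helix-loop-helix factor that specifies the pancreas, was at 0.197 to 0.922 TPM in sublingual gland and at 56.8, 30.6, 56.7, 59.6 and 23.0 TPM in pancreas. Its difference was -4.93 (SE 0.34, limma adjusted p = 0.000116), and RBPJL, its acinar partner, differed by -6.60. BHLHA15, a factor of secretory cells in many exocrine glands, was at 7.08, 1.23, 6.75, 2.45 and 38.5 TPM in sublingual gland and 115, 40.3, 81.6, 102 and 22.2 TPM in pancreas. It was called lower over the 5 animals (-3.12, SE 0.76, limma adjusted p = 0.0429), and the call held in 8 of 14 fits. Baboon 5 was higher in sublingual gland, the library with the largest sum of the mucous list. XBP1, which drives the secretory pathway, was not called (-1.79, adjusted p = 0.0922).

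Most factors of gut endoderm were low in the sublingual gland. Of 12 measured, 8 were called lower and 0 higher, against 2.3% and 7.35% of all genes. The lower calls were 4 to 8 with 1 animal left out, against 1.04% to 2.36% of all genes. They fell to 1 without baboons 1 and 4 together, against 0.701%. FOXA2 was at 0.544 ± 0.391 TPM in sublingual gland and 17.3 ± 2.49 TPM in pancreas (SD, n = 5 each), a difference of -3.59 (SE 0.31, limma adjusted p = 0.000445). PDX1, which patterns the pancreatic bud, differed by -2.77, with means of 6.95 TPM in pancreas and 0.131 TPM in sublingual gland. SOX9 and FOXA1, which many ductal and glandular epithelia use, were different: SOX9 was at 0.800 to 13.97 TPM in sublingual gland and 2.94 to 7.93 TPM in pancreas (0.12, adjusted p = 0.863). FOXA1 was at 0.202 to 7.87 TPM in sublingual gland and 0.402 to 0.842 TPM in pancreas (1.39, adjusted p = 0.0746).

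Islet genes were called only in part. INS, IAPP and ABCC8, which beta cells use to make and release insulin, were called lower. They were the 3 called of 15 measured hormone and granule genes, against 2.3% of all genes called lower. With 1 animal left out 1 to 4 of the 15 were called lower, against 1.04% to 2.36% of all genes. Without baboons 1 and 4 together 0 were, against 0.701%. INS was at 5248, 562, 4704, 732 and 13411 TPM in pancreas and at 40.8, 15.9, 501, 39.2 and 51.0 TPM in sublingual gland, a difference of -5.49 (SE 0.70, limma adjusted p = 0.00489). Its pancreas values spread widely, and the lowest pancreas library exceeded the highest sublingual library. GCG, the glucagon gene, was at 280 TPM in the pancreas of baboon 1 but 0.752 TPM in that of baboon 2 and was not called (-3.01, adjusted p = 0.0801). MNX1, a factor of beta cells, was at 4.495 to 14.4 TPM in pancreas and under 0.1 TPM in every sublingual library. It was the 1 called lower of 5 islet transcription factors, against 2.3% of all genes.

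The receptors that start secretion differed in both directions. SCTR, the secretin receptor, was at 0.423, 0.787, 1.10, 0.165 and 0.252 TPM in sublingual gland and 40.2, 47.8, 29.4, 37.7 and 33.2 TPM in pancreas, with a difference of -4.66 (SE 0.32, limma adjusted p = 0.000119). CCKAR, the cholecystokinin receptor, was below 0.13 TPM in every sublingual library and at 1.22 to 46.6 TPM in pancreas (-2.95). GRPR, the receptor for gastrin-releasing peptide, also fell (-1.22). VIPR1 and P2RY2, receptors for vasoactive intestinal peptide and extracellular nucleotides, were called higher by 2.07 and 2.40. In all, 3 of 9 measured were higher and 3 lower, against 7.35% and 2.3% of all genes. After TMM scaling the 3 lower calls remained, against 4% of all genes, and none of the 3 higher ones did. With 1 animal left out 0 to 2 were called higher and 1 to 2 lower. Without baboons 1 and 4 together 0 were higher and 1 lower, against 0.061% and 0.701% of all genes. The muscarinic receptor CHRM3 was at 3.87 TPM in the sublingual library of baboon 5 and at most 0.456 TPM in the other 4, and was not called (-0.38).

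Amino acid metabolism genes that acinar cells use were 5 lower and 1 higher of 12, against 2.3% and 7.35% of all genes. The lower calls were 2 to 5 with 1 animal left out, against 1.04% to 2.36% of all genes. They numbered 2 without baboons 1 and 4 together, against 0.701%. CBS, an enzyme of sulfur amino acid synthesis, was at 1.95 ± 0.634 TPM in sublingual gland and 41.6 ± 10.7 TPM in pancreas (SD, n = 5 each; -3.84, SE 0.33, limma adjusted p = 0.000428). The glutamine carrier SLC38A5 and the arginine-to-glycine transferase GATM differed by -3.66 and -3.49. PSPH, of serine synthesis, rose by 1.71 but was not called after TMM scaling. Genes of protein folding and translocation in the endoplasmic reticulum were less separated. Of 29 measured, the oxidase ERO1B was lower (-3.15) and the signal recognition particle gene SRP9 higher (1.95). The shares of all genes were 2.3% lower and 7.35% higher. With TMM scaling 7 of 29 were lower and 0 higher, against 4% and 0.646% of all genes.

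Genes raised in all 5 sublingual libraries, with a within-animal difference of at least 1, numbered 268 of 13620 (1.97%), and 203 were lowered by as much in all 5 (1.49%). After TMM scaling the raised genes were 28 and the lowered 359, and 27 genes were raised in all 5 animals under both scalings. Of the 268, 265 were also called higher with values as deposited and 64 after TMM scaling. At a difference of at least 2 in every animal, 9 genes remained.

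PITX1, a homeobox factor of the oral region, had the highest difference under the naming rule. Sublingual values were 709.9, 28.4, 49.9, 271 and 75.3 TPM in baboons 1 to 5, and pancreas values 1.35, 5.34, 2.92, 1.67 and 2.34 TPM. No sublingual library overlapped the pancreas, and the libraries with mucosa genes, of baboons 1 and 4, were the highest. The difference was 5.07 (SE 0.80, limma adjusted p = 0.0133), and 4.38 after TMM scaling (adjusted p = 0.0214). Over the 14 fits PITX1 was called in 12. The call ended without baboon 4 (4.67, adjusted p = 0.0557) and without baboons 1 and 4 together (3.47, adjusted p = 0.0509). In baboons 3 and 5, whose sublingual libraries held neither much mucosa nor much muscle, the within-animal differences were 3.70 and 4.51. PITX1 was at 3.38 TPM on average in liver, 29.3 TPM in parotid and 35.7 TPM in submandibular gland.

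Some other factors of oral and salivary epithelium were higher too. Of 33 measured, 7 were called higher and 0 lower, against 7.35% of all genes called higher, and 25 had an unadjusted p under 0.05. BARX2, a homeobox factor of oral ectoderm and glands, was at 118, 25.1, 22.9, 62.6 and 31.2 TPM in sublingual gland and 3.46 to 4.76 TPM in pancreas, again with no overlap (3.10, SE 0.44, limma adjusted p = 0.00803). TFAP2A, a factor of surface ectoderm, was at 10.8 to 22.9 TPM in 4 sublingual libraries but 0.631 TPM in that of baboon 2, close to its 0.192 to 0.589 TPM in pancreas (2.99, SE 0.57, adjusted p = 0.0241). PITX1, BARX2 and TFAP2A were also called after TMM scaling, and the other called factors, TP63 and ETV4 among them, were not. Leaving out 1 animal at a time gave 1 to 17 called of the 33. The 17 came without baboon 2, where 16.3% of all genes were called higher, and without baboons 1 and 4 together 1 was called.

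HOPX, a homeodomain protein without DNA binding that marks several epithelia, was chosen as a marker for the sublingual side but did not pass the threshold. It was at 2810, 52.5, 80.4, 5616 and 49.0 TPM in sublingual gland and 4.41, 13.4, 15.1, 6.83 and 20.4 TPM in pancreas. The tissues did not overlap, yet the libraries of baboons 1 and 4 were far above the other 3. The mean difference of 4.79 had an SE of 1.30 (limma adjusted p = 0.0535, and 0.146 after TMM scaling). Over the 14 fits the adjusted p ranged from 0.00672 to 0.209 and the gene was called in 5.

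**Figure D4:**
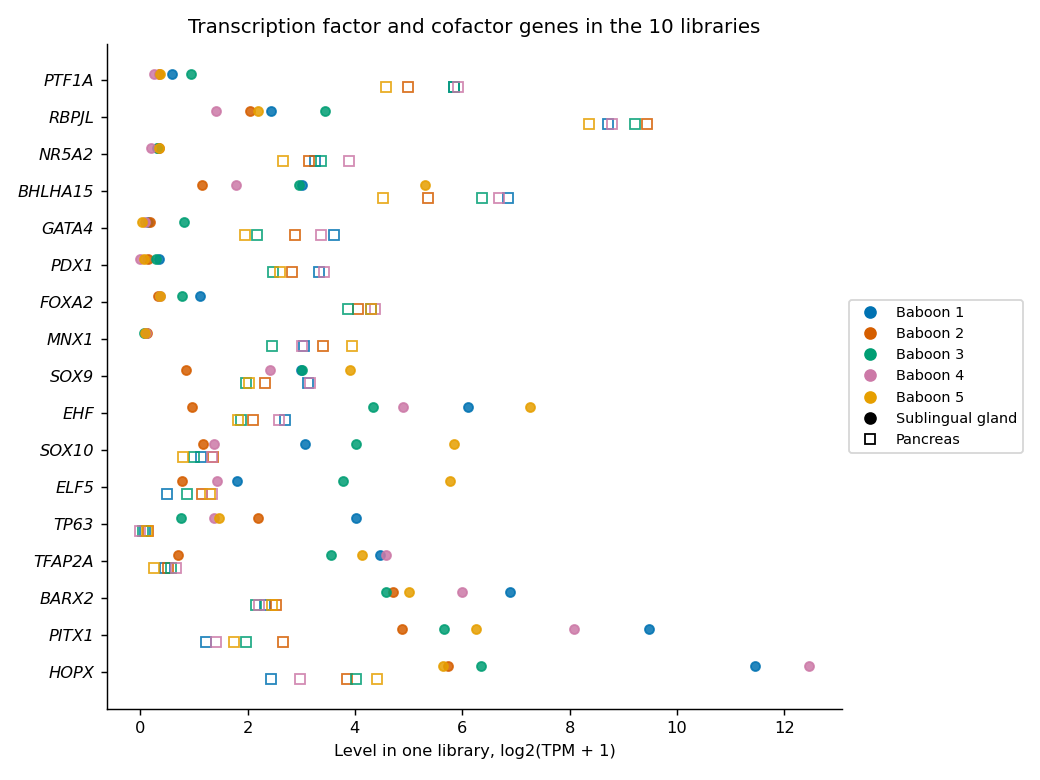
Level in log2(TPM + 1) of 17 transcription factor and cofactor genes in each sublingual library (filled circles) and pancreas library (open squares), coloured by animal. PTF1A, RBPJL and FOXA2 lie higher in all 5 pancreas libraries, PITX1, BARX2 and HOPX higher in all 5 sublingual libraries, and SOX9 and BHLHA15 overlap.

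Among the 15 highest genes of the naming rule, PITX1, CRYAB, S100A6, TBX1 and PRDX1 kept their call after TMM scaling and the other 10 did not. CRYAB, a small heat shock protein abundant in muscle and in some epithelia, was at 142, 2497, 446, 119 and 315 TPM in sublingual gland and 13.5 to 55.5 TPM in pancreas. All 5 sublingual libraries lay above all pancreas libraries, and the one with muscle genes was the highest. Its difference was 3.93 (SE 0.54, limma adjusted p = 0.00678, from 0.00083 to 0.0396 over the 14 fits). TBX1, a T-box factor of the pharyngeal region, was at 22.7, 93.9, 4.90, 28.4 and 10.3 TPM in sublingual gland and 0.483 to 1.37 TPM in pancreas. PRDX1, a peroxide-reducing enzyme, was at 1148, 189, 237, 549.9 and 248 TPM against 25.6 to 39.4 TPM, and S100A6, a calcium-binding protein, at 138 to 2354 TPM against 37.0 to 69.3 TPM.

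The other 10 genes lost their call after TMM scaling. S100A4, a calcium-binding protein, was 1 of them, with a difference of 3.65 that ranged from 2.88 to 4.20 when 1 animal was left out. LGALS3, which encodes galectin-3, was at 489, 10.8, 146, 2224 and 39.5 TPM in sublingual gland and 4.20 to 7.85 TPM in pancreas (4.41, SE 1.03, limma adjusted p = 0.0393, and 0.102 after TMM scaling). CRABP2, a retinoic acid carrier, and S100A2, a calcium-binding protein of basal epithelial cells, differed by 4.20 and 4.16 and were highest in the sublingual library of baboon 1 or 4. FBXO32, a ubiquitin ligase of muscle wasting, differed by 3.61, and by 2.92 to 4.21 with 1 animal left out. Over the 15 highest genes, 2 were still called without baboons 1 and 4, and 4 without baboon 1.

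Some genes picked out after their values were seen were raised in all 5 animals under both scalings. DST, a linker of the cytoskeleton that anchors basal epithelial cells, was at 11.2, 5.52, 7.47, 8.64 and 9.36 TPM in sublingual gland and 0.753 to 1.07 TPM in pancreas. The means were 8.43 ± 2.10 and 0.902 ± 0.132 TPM (SD, n = 5 each), a difference of 2.28 (SE 0.29, limma adjusted p = 0.00499). HK1, the hexokinase of most tissues outside liver, was at 8.19 to 37.6 TPM against 0.992 to 2.03 TPM, and PLN, which restrains the calcium pump of muscle, at 13.7 to 102 TPM against 1.91 to 5.42 TPM. CD52, a surface glycoprotein of lymphocytes, was at 54.3 to 256 TPM against 11.9 to 29.0 TPM. None of these 4 genes overlapped between the tissues, and each was called after TMM scaling. They are among the 27 genes raised in all 5 animals under both scalings. The choice therefore favours both traits, which are given as a description. The share of all genes without overlap was not computed.

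Of 12 measured genes of myoepithelial and smooth muscle cells, 7 were called higher and 0 lower, against 7.35% of all genes called higher. Leaving out 1 animal at a time gave 1 to 9 higher calls, and without baboons 1 and 4 together there were 0. ACTA2, the smooth muscle actin that gives myoepithelial cells their contraction, was at 30.7, 27.7, 134, 68.4 and 299.6 TPM in sublingual gland and 6.61 to 22.6 TPM in pancreas (2.70, SE 0.48, limma adjusted p = 0.0191). KRT17, a keratin of basal and myoepithelial cells, was at 16.3, 3.08, 45.0, 59.4 and 22.7 TPM against 0.660 to 3.72 TPM (3.20, SE 0.48, adjusted p = 0.00992). ACTA2 did not overlap between the tissues, and for KRT17 the library of baboon 2 fell within the pancreas range. These 2 were called after TMM scaling. TAGLN, MYH11, CNN1, LMOD1 and CALD1 were called with values as deposited but not after TMM scaling. TPM2 and DES, of the same list but also muscle genes, were at 12666 and 3129 TPM in the sublingual library of baboon 2 and were not called.

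Fluid and ion transport genes gave 1 higher and 1 lower call of 14, against 7.35% and 2.3% of all genes. AQP1, a water channel of capillaries and myoepithelial cells, was at 55.1, 79.8, 27.2, 14.5 and 199 TPM in sublingual gland and 3.13 to 5.69 TPM in pancreas, with no overlap. It differed by 3.36 (SE 0.54, limma adjusted p = 0.0137) and by 2.65 after TMM scaling. The citrate carrier SLC13A5 was lower (-1.89). AQP5 was not called over the 5 animals (2.61, SE 0.85, adjusted p = 0.076). None of 8 ductal sodium absorption genes was called by limma, and 4 had an unadjusted p under 0.05, against 38.6% of all genes. With TMM scaling 1 of 7 was lower, the kinase SGK1 (-2.31), against 4% of all genes.

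Mucins and the mucous cell program were high in some sublingual libraries and at pancreas level in others, and few passed the test. MUC7, the small soluble salivary mucin, was at 2326, 133, 1014, 415 and 44549.7 TPM in sublingual gland and 63.0 to 281 TPM in pancreas. It was raised in 4 animals and not in baboon 2, and was not called (3.40, SE 0.91, limma adjusted p = 0.0521). Of 8 measured mucins, MUC15 and MUC20 were higher, by 2.97 and 2.89, and 1 was lower, against 7.35% and 2.3% of all genes. MUC1, a membrane mucin of pancreatic ducts and many glands, was at 14.1, 0.824, 16.3, 17.4 and 0.77 TPM in sublingual gland and 29.0 to 80.1 TPM in pancreas and was lower (-3.02, SE 0.76, adjusted p = 0.0458). After TMM scaling MUC1 kept its call and MUC15 and MUC20 did not. Leaving out any 1 animal ended the call of MUC1 (adjusted p from 0.0587 to 0.116), which was made in 7 of the 14 fits.

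Of 13 genes of mucous cell differentiation and secretion, limma called 0, with 8 at an unadjusted p under 0.05. ZG16B, a secreted lectin-like protein of salivary glands, was at 5872, 170, 26569.8, 2137 and 217252 TPM in sublingual gland, where it made up 21.7% of the library of baboon 5, and at 142 to 1701 TPM in pancreas. SPDEF, the transcription factor of mucous cells, was at 21.8, 1.06, 11.2, 3.75 and 72.7 TPM against 1.08 to 1.65 TPM. In both genes baboon 2 had no excess. Leaving out 1 animal at a time gave 0 to 7 calls of the 13. The 7 came without baboon 2, where 16.3% of all genes were called higher, and without baboons 1 and 4 together there were 0. Of 18 enzymes that build mucin O-glycans, GALNT1, which attaches the first sugar, was the only one called (1.78, SE 0.33, adjusted p = 0.0217), at 7.68 to 19.9 TPM in sublingual gland and 1.49 to 3.70 TPM in pancreas. The share of all genes called higher was 7.35%. GALNT1 was not called after TMM scaling, where 2 other enzymes of the list were lower, against 4% of all genes.

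Like the mucins, secreted defence proteins gave few calls: 2 of 16 were higher, against 7.35% of all genes. An unadjusted p under 0.05 was reached by 12 of them, against 38.6% of all genes. SCGB2A2, a secretoglobin, was at 79.9, 3.98, 99.1, 5.97 and 257 TPM in sublingual gland and 0 to 4.65 TPM in pancreas (3.75, SE 0.87, limma adjusted p = 0.0384). PIGR, which carries IgA into saliva, was at 74.9, 1.56, 41.8, 11.8 and 294 TPM against 1.01 to 4.97 TPM (3.26, SE 0.84, adjusted p = 0.0474). Lysozyme, LYZ, was at 1341, 19.6, 617, 549 and 17351 TPM against 16.9 to 112 TPM and was not called (3.69, adjusted p = 0.0717). Neither SCGB2A2 nor PIGR was called after TMM scaling, and with 1 animal left out 0 to 10 of the 16 were called. The 10 came without baboon 2, where 16.3% of all genes were called higher, and without baboons 1 and 4 together there were 0. CA6 and BPIFA2, secreted proteins of serous salivary cells, did not separate the tissues (0.19 and 0.21).

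Genes raised in only 1 or 2 sublingual libraries were far more common, 7083 of 13620 (52%). With TMM scaling they numbered 5771. By library, 6083, 2846, 4654, 4019 and 6312 genes were raised in baboons 1 to 5 with values as deposited, and 2198, 2802, 2361, 2673 and 1739 after TMM scaling. The order of the libraries turned with the scaling: baboon 5 had the most raised genes as deposited and the fewest after TMM scaling, and baboon 2 the fewest and then the most. The plot of library-specific genes shows 6 genes per animal. They were chosen for being raised in that animal and in at most 1 other, so a pattern by animal follows from the choice and is given as a description.

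The genes named for baboons 1 and 4 were mostly genes of stratified squamous epithelium. KRT13, the keratin of non-cornified oral mucosa, was at 50365 and 12518 TPM in these 2 libraries, while baboons 2, 3 and 5 had sublingual values of 228, 72.4 and 36.4 TPM. SPRR3, a cornified envelope protein of the mouth and oesophagus, was at 32569 and 29203 TPM against 149, 121 and 85.8 TPM. KRT4, SPRR1B, KRT78, CRNN and the adenosine deaminase gene ADA had the same 2 high libraries. Of the 35 mucosa genes, 20 were raised in 1 or 2 animals, against 52% of all genes. Of the same genes 3 were called higher, the basal keratins KRT5, KRT14 and KRT15, against 7.35% of all genes. KRT14 was at 905, 7.48, 182, 380 and 101 TPM in sublingual gland and 1.41 to 7.62 TPM in pancreas (4.69, SE 1.02, limma adjusted p = 0.0339, and 0.0682 after TMM scaling), so it was also above pancreas in baboons 3 and 5. Myoepithelial cells of salivary glands make KRT14 too, and the 2 sources were not separated here.

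The mucosa genes were not at 0 in all pancreas libraries either. The 35 genes summed to 1467, 919 and 730 TPM in the pancreas of baboons 2, 3 and 5 and to 137 and 105 TPM in that of baboons 1 and 4. In the latter 2 libraries 9 and 7 of the genes were at 0. KRT13 was at 0.594, 282, 158, 4.65 and 54.7 TPM in the pancreas of baboons 1 to 5, so in baboons 2, 3 and 5 it was higher in pancreas than in sublingual gland. The part of this low level in the within-animal differences was not tested.

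The genes named for baboon 2 were genes of skeletal muscle except PPDPFL, at 596 TPM there and at most 5.39 TPM in the other 4 sublingual libraries. ACTA1, the skeletal actin, was at 33485 TPM in its sublingual library and at 139, 190, 5.10 and 2.03 TPM in those of baboons 1, 3, 4 and 5. CKM, the muscle creatine kinase, MYL1, MYOZ1 and TNNI2 had the same single high library, at 12703, 6751, 2319 and 8165 TPM. Limma called 0 of the 31 muscle genes, with 2 at an unadjusted p under 0.05, and 25 were raised in 1 or 2 animals, against 52% of all genes. Pancreas ACTA1 was lowest in baboon 3, at 8.895 TPM, and highest in baboon 2, at 169 TPM. Sublingual ACTA1 also counted as raised in baboon 3, at 190 TPM against that low pancreas value.

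The genes named for baboon 3 were of several kinds. SLN, a regulator of the muscle calcium pump, was at 95.6 TPM there and 0 in the pancreas of the same animal, but at 19978.6 TPM in the sublingual library of baboon 2. NOXO1, a subunit of an oxidase that makes superoxide, was at 66.8 TPM in baboon 3 and 10.8 TPM in baboon 5. HMGA2, a chromatin protein, was at 16710.1 TPM there and at 4805 TPM in baboon 4, against 334 to 442 TPM in the other 3 sublingual libraries and 277 to 894 TPM in pancreas. ASCL3, a factor of a small population of salivary duct cells, was at 39.9 TPM in baboon 3 and 4.29 TPM in baboon 5, and below 0.7 TPM in the other sublingual and all pancreas libraries. MMP7, a matrix protease of glandular epithelium, was at 270 and 57.1 TPM in baboons 3 and 5. LACRT, a secreted glycoprotein known from tears, was at 109 TPM in baboon 3 and at most 2.03 TPM elsewhere in these tissues. The 3 list members that follow, FOXI1, FXYD2 and KLK1, were chosen after their values were seen. FOXI1, a factor of proton-pumping ionocytes, was at 12.2 TPM in baboon 3 and below 0.7 TPM in the other 9 libraries, and FXYD2, a modulator of the sodium pump, at 3699 TPM in baboon 3. KLK1, made by striated ducts, was highest in the same library, as given above. The whole list of ductal sodium absorption genes summed to 324 TPM in baboon 3 and 382 TPM in baboon 5.

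The genes named for baboon 5 included secreted proteins. MUC19, a gel-forming mucin, was at 95.6 TPM in baboon 5 and 20.6 TPM in baboon 1, against 0.853 to 1.34 TPM in the other 3 sublingual libraries. ODAM, a protein of tooth-facing epithelium that glands also secrete, was at 70.9 TPM and PGLYRP1, which binds bacterial cell walls, at 46.1 TPM. SPINK6, a protease inhibitor, was at 59.6 TPM and at most 0.524 TPM in the other 4, which made it the only one of the 6 genes named for this animal that was raised in 1 animal alone. SCGN, the calcium-binding protein secretagogin of neuroendocrine cells, was at 249 TPM in baboon 5 and TF, the iron carrier transferrin, at 294 TPM. PIP and BPIFB1, list members chosen after their values were seen and secreted by salivary and airway glands, reached 61330.1 and 16725 TPM there.

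**Figure D5:**
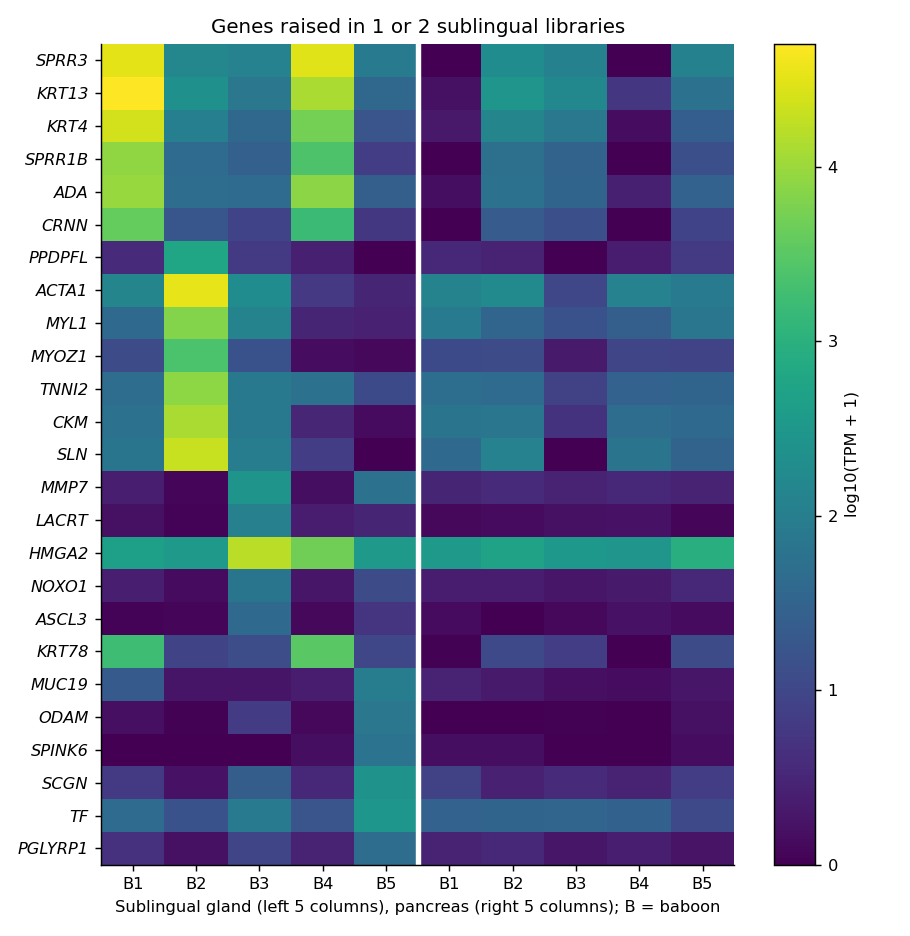
Level in log10(TPM + 1), as colour, of the genes with the largest within-animal difference among those raised in that animal and at most 1 other, in 5 sublingual (left) and 5 pancreas libraries (right). Mucosa genes are bright in baboons 1 and 4, muscle genes in baboon 2, and the last rows in baboon 5.

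Markers of other cells that a section can hold were checked as lists. Plasma cell genes summed to 976, 32.1, 1876, 129 and 9134 TPM in the sublingual libraries and to 205 to 262 TPM in pancreas. Their order over the 5 animals was that of the mucous list sums, and JCHAIN, which joins IgA, reached 8720 TPM in baboon 5. Of 7 plasma cell genes 0 were higher and 1 was lower, against 7.35% and 2.3% of all genes. The lower one was DERL3 (-2.998), a gene of protein quality control that pancreatic acini also express. Of 10 lymphocyte genes CD79B rose (2.05), of 12 adipocyte genes FABP4 (1.85), of 7 endothelial genes VWF and CLDN5 (1.37 and 1.87) and of 7 nerve genes PMP22 (2.27), against 7.35% of all genes called higher. None of these 5 was called after TMM scaling, where 1 endothelial gene was lower. Of 7 fibroblast genes limma called 0, with 5 at an unadjusted p under 0.05. Of 12 hepatocyte genes it called 0, with 1 at an unadjusted p under 0.05, and ALB was at 264 ± 173 TPM in sublingual gland and 286 ± 118 TPM in pancreas (SD, n = 5 each).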

How the data were processed

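The deposited values are TPM per gene made by the authors, and the table is named as kallisto abundances. FastQC, MultiQC, cutadapt, HISAT2, kallisto, SAMtools, featureCounts and DESeq2 are listed per the submitters' processing notes, without roles. The kallisto version, index, genome build and annotation are not given in the sources used here, so no coordinates are printed. TPM keeps no depth and is relative within a library. Precision therefore rests on 5 animals, and the spread covers section and animal together. Tissue and animal number come from the sample titles, and the number names the animal, so libraries were paired by it. Same-animal deviations of the 2 tissues correlated at 0.098, -0.052, -0.031, -0.224 and -0.035 for baboons 1 to 5. All 21287 identifiers matched a RefSeq symbol of the Panubis1.0 table.

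Genes averaging 1 TPM or more in either tissue were modelled as log2(TPM + 1) by limma 3.58.1 under R 4.3.3 (lmFit, eBayes with trend) with animal as a block, using the 10 libraries, 4 residual degrees of freedom and Benjamini-Hochberg adjustment. The pseudocount of 1 understates changes of low genes. "Raised" means a within-animal difference of at least 1. TMM and median-of-ratios factors were computed on TPM. The fit was tested on simulated data with the same spread in every library. The sublingual sections differ in content, so the simulation cannot speak for them. Genes are named by rule: 4 markers, the 15 highest and 15 lowest called genes (averaging 10 TPM or more where higher, same direction in 5 animals, no LOC symbol), 6 genes per animal among those raised in at most 1 other animal, and up to 4 called members of each of 27 lists (453 symbols, 406 in the table). Some called list members are not reported here. Other named list members and genes were chosen after their values were seen. The comparison, members and lists were chosen with earlier results of these data known. Alternatives were no pairing, all 25 libraries, both scalings, no filter, a minimum of 5 TPM, a pseudocount of 0.1, a within-animal difference of 2, each animal left out, and baboons 1 and 4 left out.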

Additional observations from a re-analysis of the deposited data

Results flagged for a closer look

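Within-animal differences of 76 named genes were screened for 1 animal standing apart from the other 4, by the gap to the nearest animal as a share of the whole range, against Dixon's critical value of 0.71. Chance alone gives about 1 such gene in 20, so the 4 found among 76 are about as many as chance gives. Genes named for a single animal were not screened, since they had been chosen for standing apart. BHLHA15, MUC20, TFAP2A and SCTR passed. BHLHA15, the secretory cell factor, had a gap of 0.739 of its range, with baboon 5 at 0.77 and the next animal at -3.41. MUC20 had a gap of 0.805, with baboon 2 at -1.002 and the next animal at 3.28. TFAP2A had a gap of 0.731, with baboon 2 at 0.18 and the next animal at 2.98. In both of the latter genes the animal apart is the one whose sublingual library held 195641 TPM of skeletal muscle genes, and the part of that content was not tested. SCTR, the secretin receptor, had a gap of 0.764, with baboon 3 at -3.85 and the next animal at -4.77, and all 5 animals were far below 0.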

How the results depend on the processing

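Genes called higher numbered 1001, and 2209 with no replicate block for the pairing by animal, 85 with TMM scaling, 79 with median-of-ratios scaling, 236 with no filter on low values, 19 to 2214 with 1 animal left out and 8 without baboons 1 and 4. Genes called lower numbered 313, and 526 with TMM scaling, 503 with median-of-ratios scaling, 138 to 321 with 1 animal left out and 92 without baboons 1 and 4. The all-library fit, a minimum of 5 TPM and a pseudocount of 0.1 kept both counts within 1.5 times. Genes raised in all 5 animals numbered 268, and 28 and 32 with the 2 scalings, 9 at a difference of 2 and 562 with a pseudocount of 0.1. With 1 animal left out, 282 to 982 were raised in all 4 that remained. Genes raised in 1 or 2 animals numbered 7083, and 4622 at a difference of 2 and 3680 at a minimum of 5 TPM. Genes lowered in all 5 numbered 203, and 359 and 353 with the 2 scalings and 104 at a difference of 2. With 1 animal left out, 213 to 290 were lowered in all 4 that remained. Counts over 4 animals cannot fall below those over 5, so the rise in both follows from the easier rule. The fit without baboons 1, 2 and 4 together was not run, since 2 pairs remain. For 76 named genes, 986 comparisons with an alternative gave 679 on the same side of the threshold, 302 that lost the call, 5 that gained it and 0 reversals. All of these genes except HOPX were called with values as deposited. A gain was thus possible for HOPX alone, which gave all 5, and the balance of losses and gains follows from the choice. The cause of these shifts was not tested, except that leaving out animals leaves fewer samples. With TPM alone, depth gives no limit of its own for low genes.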
